A study of Mus musculus with 35 samples.

Results

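NELFB is a scaffold subunit of the negative elongation factor complex (NELF), which holds RNA polymerase II in a paused state shortly after transcription has begun. NELFA and NELFC bind one face of NELFB and NELFE another, and release of the paused polymerase depends on the kinase P-TEFb. Loss of NELFB in mouse cells is known to alter the expression of metabolic, stress and growth-control genes. The data described here are the RNA-seq libraries of cell populations that carried the NELFB double mutant DMT, compared between infection with a virus for Cre recombinase, which deletes the endogenous Nelfb gene, and a control virus.

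The 4 DMT libraries, of 35 libraries in the series, were 2 DMT-Cre and 2 DMT-GFP populations collected at day 7 after infection. All were immortalized mouse embryonic fibroblasts (MEFs) of genotype Nelfb flox/-, that is, with a null allele and a floxed allele that Cre removes, and all stably carried a flag-tagged mouse NELFB cDNA in a lentiviral vector with a CMV promoter after G418 selection. DMT joins the alanine substitutions of MT194, which abolishes binding of NELFA and NELFC, and of MT486, which abolishes binding of NELFE. Ad-Cre is an adenovirus that encodes Cre with GFP and Ad-GFP is the control virus, so the comparison asked how transcript levels change when the double mutant becomes the remaining source of NELFB. The populations were uncloned, so cells in which the floxed allele escaped deletion could not be told apart from the others, nor could fewer cells of a type and less RNA per cell. Replicates 1 and 2, which the study describes as separate experiments for the other constructs, were compared within pairs, DMT-Cre 1 with DMT-GFP 1 and DMT-Cre 2 with DMT-GFP 2. Populations with the empty vector (EV), wild-type NELFB (WT), MT194 or MT486, each with the same viruses, cells, time point and 2 replicates, served for comparison (16 libraries), and the 15 stable clones of the series were not used.

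Reads on genes numbered 23942142 in DMT-Cre 1, 27726070 in DMT-Cre 2, 17969149 in DMT-GFP 1 and 29080007 in DMT-GFP 2. The replicate 2 libraries stood apart in composition, since the 20 most abundant genes held 12.2% of the reads in DMT-Cre 2 and 10.4% in DMT-GFP 2, against 7.92% and 8.17% in the replicate 1 libraries. Reads on no gene were 15.8% and 15.6% of the reads in DMT-Cre and 14.2% and 19.9% of those in DMT-GFP. Most fibroblast markers were abundant in all 4 libraries, with Fn1, which encodes fibronectin, as the highest. Summed over the list, DMT-Cre held 26400 and 50300 CPM (read counts scaled to a common library size), against 26500 and 38600 CPM for DMT-GFP. These sums hide members at low levels. Thy1 had 2 reads in DMT-GFP 1, none in the other libraries, and was not tested. Lum stood at 0.573 and 1.16 CPM after Ad-Cre, against 0.884 and 3.17 CPM after Ad-GFP. Fap stood at 3.82 and 8.25 CPM after Ad-Cre, against 17.6 and 26.2 CPM after Ad-GFP. Of 12 fibroblast markers tested, 1 rose and 5 fell (none and 2 without the replicate block described below, 1 and 2 without DMT-GFP 2), among them Pdgfra, a growth factor receptor, at 829 and 1294 CPM in DMT-Cre against 1576 and 2343 CPM in DMT-GFP. Macrophage and leukocyte markers, with Cd14 the highest, summed to 192 and 331 CPM in DMT-Cre and 366 and 450 CPM in DMT-GFP, of which 2 of 6 tested rose and 2 fell (none and 1 without the block), and their part in the results was not tested. Of the 2 that rose, Fcgr1 had few reads, 8 and 14 counts in DMT-Cre against 1 and 3 in DMT-GFP. Among all tested genes 11.2% were called higher and 12% lower, by the test described below. Of the listed markers of other cell types, the epithelial genes Epcam, Krt8 and Krt14, the endothelial genes Tie1 and Cldn5 and the leukocyte gene Tyrobp had no read in any of the 4 libraries. Other members had reads. The epithelial gene Krt19 was called higher, at 5.5 and 4.74 CPM in DMT-Cre and 2.13 and 1.26 CPM in DMT-GFP. The neural list, with Nes the highest, summed to 106 and 112 CPM in DMT-Cre and 56 and 75.6 CPM in DMT-GFP. The adipocyte list summed to 96.1 and 74.9 CPM against 118 and 90.7 CPM.

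The mutated codons are shown because they define the double mutant. The positions are from the GENCODE transcript of Nelfb on mm10, on the minus strand of chromosome 2 (gene from 25199712 to 25211489), whose codon numbers run 2 ahead of the residue numbers in the construct names. The MT194 codons lie in exon 4 of 13, chr2:25210010-25210018, and the MT486 codons in exon 10, chr2:25203169-25203177, both in coding sequence. Each reference stretch is followed by the mutagenesis primer, with the 3 exchanged codons in capitals. The 3 codons that become alanine encode valine, lysine and arginine in MT194 and asparagine, lysine and asparagine in MT486.
MT194 reference: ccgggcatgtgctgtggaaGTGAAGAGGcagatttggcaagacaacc
MT194 primer: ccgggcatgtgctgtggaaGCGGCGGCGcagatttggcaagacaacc
MT486 reference: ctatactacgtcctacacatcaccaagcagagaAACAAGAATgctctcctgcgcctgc
MT486 primer: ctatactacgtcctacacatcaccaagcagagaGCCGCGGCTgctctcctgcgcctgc

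Nelfb transcripts were higher, not lower, in DMT-Cre. Nelfb stood at 169 and 208 CPM in DMT-Cre and at 73.5 and 61.6 CPM in DMT-GFP (mean ± SD 188.5 ± 28.1 and 67.6 ± 8.39, n = 2 each), so that the groups did not overlap. The log2 fold change was 1.49 (SE, the standard error, 0.15, adjusted p = 3.78e-06 by the quasi-likelihood test of edgeR, with p-values adjusted by Benjamini and Hochberg's method over all genes, here and below). These reads come from the ectopic cDNA and the endogenous gene together, so the measure does not show by itself how much of the floxed allele was deleted. In the EV populations, where only the endogenous gene gives Nelfb reads, the level was 7.97 and 5.46 CPM with Ad-Cre and 46.1 and 39.55 CPM with Ad-GFP. The Cre effect on Nelfb was -2.67 in EV, -0.40 in WT, 0.71 in MT194 and 0.52 in MT486 on the log2 scale, and it was larger in DMT than in WT by 1.89 (SE 0.21, adjusted p = 0.000183).

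**Figure D1:**
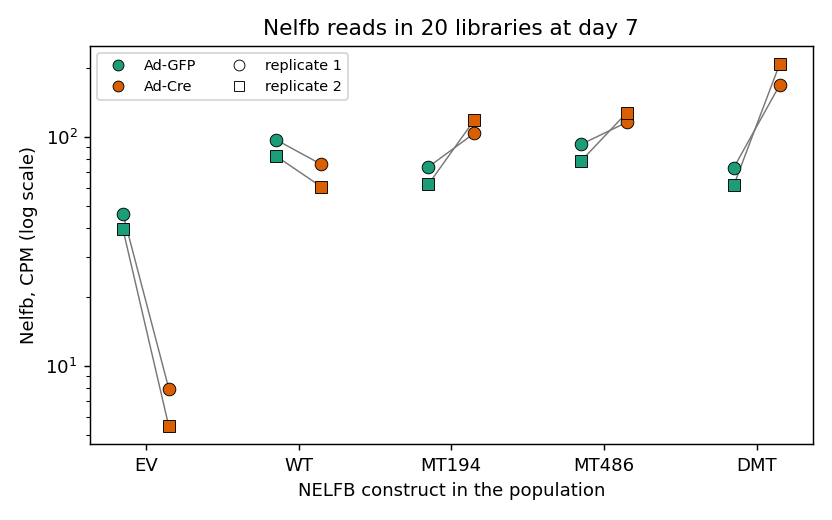
Nelfb level in the 20 population libraries at day 7, in CPM on a log axis, by construct; green marks Ad-GFP, orange Ad-Cre, circles replicate 1 and squares replicate 2, and a line joins the libraries of a pair. Both DMT-Cre libraries (169 and 208 CPM) lie above all 18 others, and both EV-Cre libraries lie lowest.

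The transcripts of NELFB's partners moved little. Nelfa, which encodes a subunit bound by the region that MT194 alters, was at 38.6 and 30.9 CPM in DMT-Cre and 37.9 and 32.2 CPM in DMT-GFP. Nelfcd, encoding NELFC/D, had a log2 fold change of 0.29 (adjusted p = 0.0392), under the size of 0.5 that a call required, and Nelfe one of -0.24 (adjusted p = 0.0695). Of 12 tested genes for DSIF, P-TEFb and 7SK factors, which control release of the paused polymerase, Hexim1 and Hexim2 fell and none rose. This is 16.7% of the list, near the 12% of all tested genes called lower. Both encode inhibitors of P-TEFb, with log2 fold changes of -0.55 (SE 0.11) and -0.99 (0.15), and Hexim1 lost its call without DMT-Cre 1 and without DMT-GFP 1. None of 14 Integrator subunit genes was called, and of 13 genes for polymerase II subunits only Polr2l rose, from 4.68 and 4.72 CPM to 15.2 and 12.4 CPM.

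A large share of the transcriptome differed between Ad-Cre and Ad-GFP in the DMT populations. Of 13805 genes tested, 3191 were called at an adjusted p under 0.05 and a log2 fold change over 0.5 in size, which is 23.1%, with 1540 genes higher (11.2%) and 1651 lower (12%) in DMT-Cre. Over 1 in size there were 1215 (8.8%), and 293 called genes changed by over 2, of which 151 rose and 142 fell. The median over all tested genes was 0.00. The log2 ratios had the same sign in both pairs for 76.5% of all tested genes, and the ratios of pair 1 and pair 2 had a Pearson r of 0.756 across genes, which are not independent replicates. The ratio was larger in size in pair 2 for 1873 of the 3191. Without the replicate as a block in the model, 1369 genes were called, 632 higher and 737 lower.

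**Figure D2:**
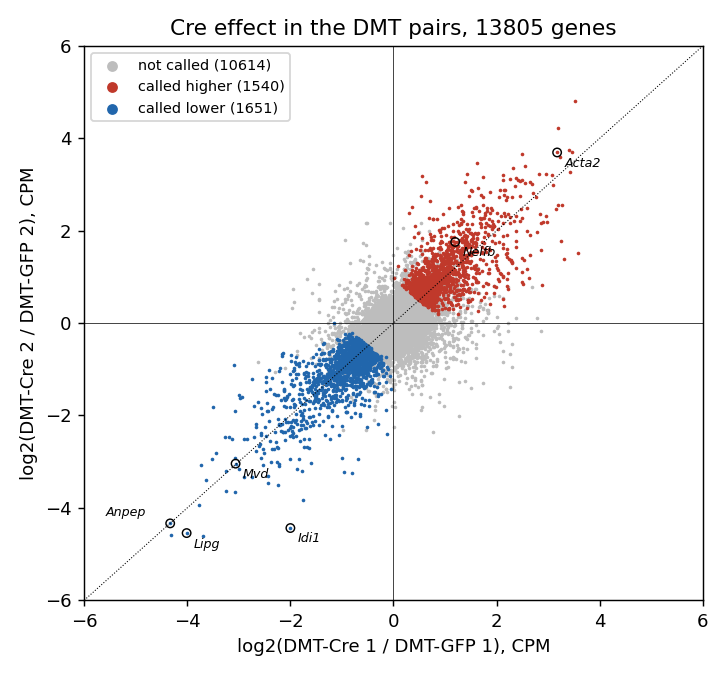
Log2 ratio of DMT-Cre to DMT-GFP CPM in pair 1 (x axis) and pair 2 (y axis) for 13805 genes, with a prior count of 2; red points were called higher (1540), blue lower (1651) and grey not called (10614), rings mark the labelled genes, and the dotted line is equality. Acta2 lies at the upper right end and Lipg and Anpep at the lower left end in both pairs.

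Among called genes that averaged 50 counts or more over the DMT libraries, the 12 largest increases included genes of the cell surface, the contractile apparatus and the matrix. Timp3, an inhibitor of matrix metalloproteinases (chromosome 10, 86300372 to 86349506, plus strand), was at 758 and 1237 CPM in DMT-Cre and at 121 and 149.8 CPM in DMT-GFP, a log2 fold change of 2.84 (SE 0.24, adjusted p = 1.17e-06). Its DMT-Cre libraries differed from each other more than its DMT-GFP libraries did, yet every DMT-Cre value was above every DMT-GFP value. Thbd, encoding thrombomodulin, rose from 97.8 and 113 CPM to 509.5 and 1005 CPM. Hbegf, a ligand of the EGF receptor, rose by 3.02 on the log2 scale (SE 0.28). The largest log2 fold change of the 12, 4.82, belonged to Gpr35, which encodes a G protein-coupled receptor, at 3.36 and 6.46 CPM in DMT-Cre and 0.208 and 0.144 CPM in DMT-GFP, a low level. Others of the 12 were Cnn1, Ctgf, Acta2, Arc, Hist1h4h, S100g and Lims2, with log2 fold changes from 2.80 (Lims2) to 3.69 (Cnn1).

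The 12 largest decreases under the same rule included secreted and membrane enzymes, signaling genes and sterol synthesis. Anpep, encoding the surface peptidase aminopeptidase N (chromosome 7, 79821803 to 79861059, minus strand), was at 1.83 and 2.87 CPM in DMT-Cre and at 38.7 and 59.7 CPM in DMT-GFP, a log2 fold change of -4.38 (SE 0.32, adjusted p = 8.47e-07). Lipg, encoding endothelial lipase, was at 1.03 and 0.957 CPM against 18 and 24.4 CPM, a log2 fold change of -4.40. Fmo1, a flavin-containing monooxygenase, stood at 2.18 and 2.03 CPM in DMT-Cre and 21.6 and 26.2 CPM in DMT-GFP. In each of these genes the DMT-Cre and DMT-GFP libraries did not overlap, and the lower DMT-GFP library was far above the higher DMT-Cre library. Spib, a transcription factor gene of the ETS family, fell by 4.35 on the log2 scale, and Igf1, which encodes insulin-like growth factor 1, had a log2 fold change of -3.20. Others of the 12 were Ddit4l, Dact2, Gprc5c, Stk32b and the sterol enzyme genes Mvd and Tm7sf2, from -3.02 (Tm7sf2) to -3.92 (Ddit4l).

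**Figure D3:**
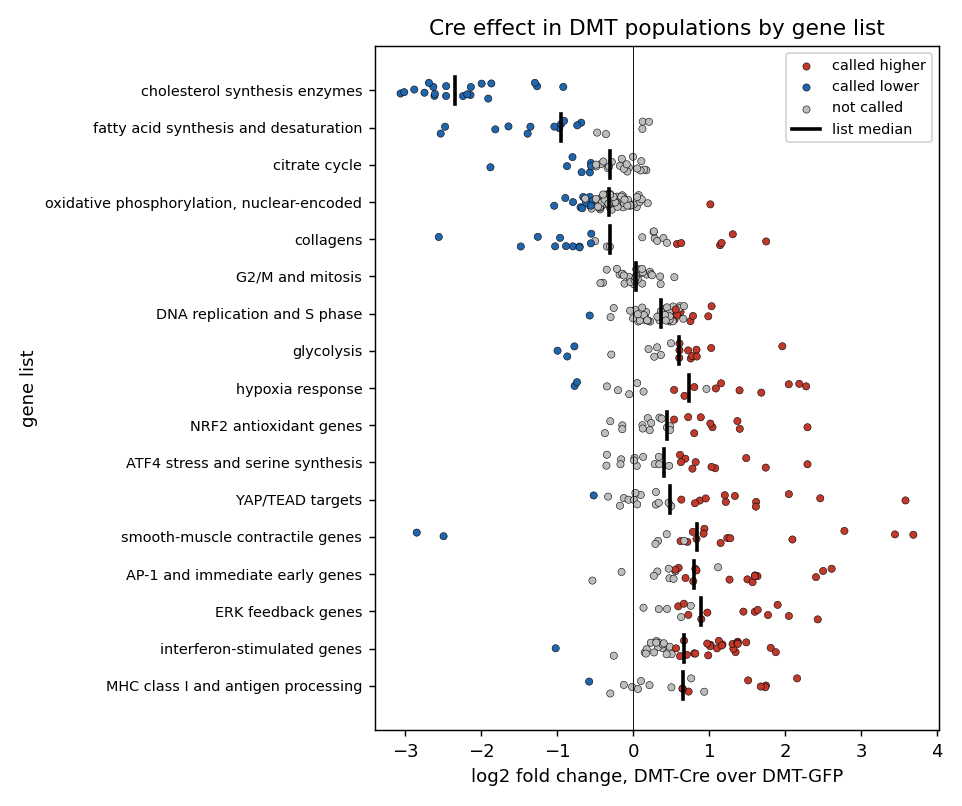
Log2 fold change of DMT-Cre over DMT-GFP (x axis) for the tested members of 17 gene lists; each point is a gene, red or blue where called higher or lower and grey where not called, and the bar is the list median. The cholesterol synthesis enzymes all lie below 0 and were all called.

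Cholesterol synthesis enzymes fell as a group. All 20 enzymes of the list, which build cholesterol from acetyl-CoA, were called lower, compared with 12% of all tested genes, and their median log2 fold change was -2.35. Hmgcs1, the synthase that makes HMG-CoA, was at 108 and 53.9 CPM in DMT-Cre and at 521 and 432 CPM in DMT-GFP, a log2 fold change of -2.62 (SE 0.19, adjusted p = 1.52e-07). The enzymes of the mevalonate branch were among the lowest, with Mvd at 12.6 and 9.05 CPM in DMT-Cre and 106 and 75.2 CPM in DMT-GFP. Idi1 was low in all 4 libraries and its pairs differed in size, with log2 ratios of -2 in pair 1 and -4.44 in pair 2. Sqle, which encodes the epoxidase at the entry to the sterol branch, fell by 1.91 (SE 0.15). The smallest decrease in the list was that of Ebp, a sterol isomerase, by 0.92. In every one of the 20 genes both DMT-Cre libraries were below both DMT-GFP libraries. All 20 had already been called lower, so this describes the calls and is not separate evidence. The share of all tested genes without overlap was not counted.

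**Figure D4:**
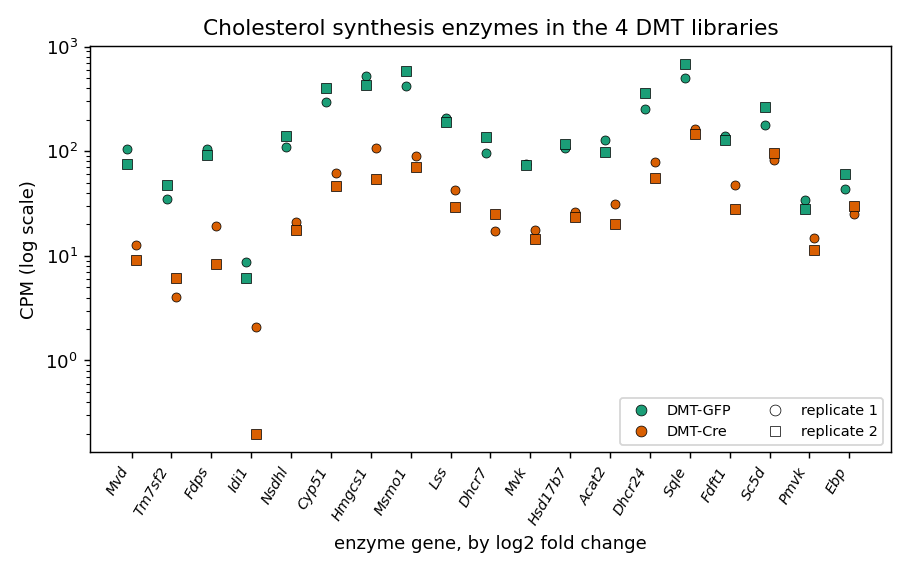
CPM on a log axis of 19 of the 20 cholesterol synthesis enzyme genes in the 4 DMT libraries, ordered by log2 fold change; green marks DMT-GFP, orange DMT-Cre, circles replicate 1 and squares replicate 2. Both orange points lie below both green points in all 19 genes, and Idi1 is lowest in DMT-Cre 2.

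The genes that govern sterol supply moved in the same direction in part. Of 19 tested genes for sterol regulation, uptake and efflux, 9 fell (47.4%, against 12% of all tested genes) and none rose. Insig1, which encodes an endoplasmic reticulum protein that retains the SREBP precursor, was at 31.3 and 21.3 CPM in DMT-Cre and at 169 and 212 CPM in DMT-GFP. Srebf2, encoding the transcription factor of the sterol genes, had a log2 fold change of -1.38 (SE 0.12). In contrast, Scap, Insig2 and Npc2 had log2 fold changes of -0.08, 0.05 and 0.11, and Srebf1 one of -0.35, which were not called.

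Of 17 tested genes for fatty acid synthesis and desaturation, 12 fell (70.6%, against 12% of all tested genes) and none rose, with a list median of -0.95. The stearoyl-CoA desaturase genes Scd1 and Scd2 fell most, Scd1 from 400.2 and 548 CPM to 78.5 and 83.3 CPM and Scd2 from 3004 and 4193 CPM to 568 and 715 CPM. Fasn, the fatty acid synthase, was at 346 and 349.9 CPM in DMT-Cre and at 744 and 687 CPM in DMT-GFP, a log2 fold change of -1.04 (SE 0.10). In these genes the DMT-Cre libraries lay close to each other and did not overlap the DMT-GFP libraries. Elovl5, Elovl1 and Me1 were not called.

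Promoter sequences of members that moved together are shown with the motifs found by a letter search on both strands of the RefSeq promoters (GRCm38.p6), 250 bases before to 50 after the start of a gene. Of 20 cholesterol enzymes, 15 had a promoter, and 14 of these 15 held CCAAT, as did 42.9% of the 10349 tested genes with a promoter and 37.4% of all promoters. The sterol regulatory element TCACNCCAC was found in Hmgcs1 alone of the 15, and in 1.48% of the tested genes' promoters and 1.24% of all promoters. It was in none of the 14 promoters found for the fatty acid synthesis list and none of the 14 for the sterol regulation list. The stretches are the 250 bases before the start site, on the coding strand. Capitals mark CCAAT, which reads ATTGG on the other strand, and in Hmgcs1 also the sterol element. Hmgcs1 held 3 CCAAT boxes and Mvd 2, while Tm7sf2 held 1.
Hmgcs1, chr13:119690101-119690350, plus strand: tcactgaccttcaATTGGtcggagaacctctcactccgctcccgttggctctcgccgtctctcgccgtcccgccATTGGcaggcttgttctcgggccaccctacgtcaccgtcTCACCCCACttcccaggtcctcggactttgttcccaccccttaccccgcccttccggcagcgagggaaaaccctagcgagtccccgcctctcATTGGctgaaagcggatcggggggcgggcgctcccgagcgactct
Mvd, chr8:122443423-122443672, minus strand: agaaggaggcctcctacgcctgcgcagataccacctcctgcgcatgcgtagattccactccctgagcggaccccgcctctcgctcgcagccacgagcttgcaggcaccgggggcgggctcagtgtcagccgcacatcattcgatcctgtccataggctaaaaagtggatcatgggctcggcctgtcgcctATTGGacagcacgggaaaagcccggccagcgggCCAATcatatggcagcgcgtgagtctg
Tm7sf2, chr19:6067851-6068100, minus strand: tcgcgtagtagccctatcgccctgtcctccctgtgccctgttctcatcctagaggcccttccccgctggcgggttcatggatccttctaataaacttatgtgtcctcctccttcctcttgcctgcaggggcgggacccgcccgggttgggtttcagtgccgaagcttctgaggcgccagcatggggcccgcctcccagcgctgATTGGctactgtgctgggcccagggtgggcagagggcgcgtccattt

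Genes of mitochondrial metabolism changed less. In the citrate cycle list, which also holds cytosolic enzymes, 7 of 26 tested genes fell (26.9%, against 12% of all tested genes) and none rose. The largest fall was outside the mitochondria, in Idh1, the cytosolic isocitrate dehydrogenase that makes NADPH, at 83.5 and 55.7 CPM in DMT-Cre and 281 and 224 CPM in DMT-GFP. The cycle genes Cs, Ogdh, Fh1 and Mdh2 were not called. Of 71 nuclear-encoded oxidative phosphorylation genes, 13 fell (18.3%) and 1 rose, against 12% and 11.2% of all tested genes, with a median log2 fold change of -0.32. Ndufa2, a subunit of complex I, fell by 0.89 (SE 0.09), and Cycs, which encodes cytochrome c, was the gene that rose, at 3.90 and 2.71 CPM in DMT-Cre and 1.87 and 1.37 CPM in DMT-GFP. Without the replicate block the counts were 3 genes lower for the citrate cycle, and 5 lower and none higher for oxidative phosphorylation.

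Glycolysis and hypoxia-response genes were mostly higher. Of 19 tested glycolysis genes 10 rose and 3 fell, and of 18 hypoxia-response genes 10 rose and 2 fell, with medians of 0.60 and 0.74. The shares that rose were 52.6% and 55.6%, against 11.2% of all tested genes, and those that fell were 15.8% and 11.1%, near the 12% of all tested genes. Slc2a1, the glucose transporter GLUT1, was at 190.3 and 439.7 CPM in DMT-Cre and at 65.1 and 88.2 CPM in DMT-GFP. Ero1l, an oxidase of the endoplasmic reticulum that hypoxia induces, rose from 35.8 and 44.6 CPM to 119 and 296 CPM. For both genes the groups did not overlap and DMT-Cre 2 was the highest library. The lactate dehydrogenase genes moved in opposite directions, Ldha by 0.83 and Ldhb by -0.997, and Hif1a, encoding the hypoxia-inducible factor itself, had a log2 fold change of 0.05. Without the replicate block, 4 glycolysis genes rose and 2 fell, and 6 hypoxia genes rose and none fell.

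Most smooth-muscle contractile genes, and a part of the targets of YAP/TEAD, the transcription factors that respond to cell tension, were higher. Of 19 contractile genes tested, 13 rose and 2 fell (8 and 2 without the replicate block, 12 and 1 without DMT-Cre 1), and of 26 YAP/TEAD targets 12 rose (46.2%), 1 fell and 13 were not called, against 11.2% higher and 12% lower among all tested genes. Of the 13, Mrvi1 and Actg2 had few reads, with means of 10 and 44 counts over the DMT libraries. In the contractile list 6 genes also rose in WT and 12 in MT486. Acta2, which encodes smooth-muscle actin (chromosome 19, 34241090 to 34255590, minus strand), was at 179.6 and 215 CPM in DMT-Cre and at 19.8 and 16.6 CPM in DMT-GFP, a log2 fold change of 3.44 (SE 0.21, adjusted p = 1.91e-07). Cnn1, encoding calponin, rose from 1.35 and 0.972 CPM to 15.8 and 13.8 CPM, and Tagln, encoding transgelin, from 24.2 and 16.1 CPM to 134 and 137 CPM. In all of these genes both DMT-Cre libraries were far above both DMT-GFP libraries. Mylk, the kinase of myosin light chain, went the other way, from 90.7 and 141 CPM to 15.1 and 26.1 CPM, and Sncg, encoding gamma-synuclein, was called lower on few reads, 1 and 2 counts in DMT-Cre against 12 and 9 in DMT-GFP. Ctgf, encoding connective tissue growth factor, was at 424 and 672 CPM against 40.1 and 49.9 CPM, and Cyr61, a related matricellular protein gene, at 609 and 1349 CPM against 138 and 197 CPM.

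The letters GGAATG, which TEAD factors bind, were in 7 of the 17 contractile genes' promoters and in 9 of the 17 promoters found for the YAP/TEAD targets, and in 14.7% of the promoters of tested genes and of all promoters. Not all of these genes rose. Of the 7, Mylk fell and Cald1, Smtn and Lmod1 were not called, and of the 9, Axl, Wwtr1, Yap1 and Ptpn14 were not called. The CArG box, which serum response factor binds, was searched only in its strict form, CC and GG around a run of A and T. That form was in 3 of the 17 contractile genes' promoters, 1.61% of those of tested genes and 1.63% of all. Forms with a mismatch were not counted or marked, in Acta2 or elsewhere. The AP-1 element TGANTCA was in 2 of the 17 and in none of 19 promoters found for the AP-1 and immediate early genes, and in 6.55% of those of tested genes and 7.81% of all. In Acta2 the match (capitals) ended 140 bases before the RefSeq start.
Acta2, chr19:34255374-34255623, minus strand: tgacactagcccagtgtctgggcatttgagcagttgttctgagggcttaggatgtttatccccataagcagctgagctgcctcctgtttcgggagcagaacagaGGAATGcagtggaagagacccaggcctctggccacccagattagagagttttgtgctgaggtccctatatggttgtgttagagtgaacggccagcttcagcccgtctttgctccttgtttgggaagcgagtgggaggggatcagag

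Transforming growth factor β (TGF-β) genes, matrix proteases and collagens were mixed. Of 24 TGF-β ligands, receptors and targets, 7 rose (29.2%) and 3 fell (12.5%), against 11.2% and 12% of all tested genes, and 6 rose and 1 fell without the block. Inhba, which encodes the activin A subunit, was at 39.9 and 57.9 CPM in DMT-Cre and 8.99 and 7.78 CPM in DMT-GFP, while Tgfbi, a matrix protein gene, was at 143 and 171 CPM against 388 and 670.0 CPM. The receptor genes Tgfbr1, Tgfbr2 and Tgfbr3 and the effectors Smad2, Smad3 and Smad4 were not called. Of 27 genes for collagens and their crosslinking enzymes 6 rose (22.2%) and 11 fell (40.7%), against 11.2% and 12% of all tested genes (1 and 2 without the replicate block), and 3 rose without DMT-GFP 2. Col12a1 rose from 154 and 213 CPM to 425 and 874 CPM, and Col15a1 fell from 2.96 and 5.54 CPM to 0.764 and 0.638 CPM. Lox, the crosslinking oxidase, rose by 1.31 (SE 0.16), a call lost without the block. Col1a1, the main fibrillar collagen gene, overlapped between groups, at 3148 and 6732 CPM in DMT-Cre and 5437 and 8539 CPM in DMT-GFP, and its call (-0.55, adjusted p = 0.0339) was lost without the block and without DMT-Cre 1, DMT-GFP 1 or DMT-GFP 2. Of 20 tested matrix proteases and inhibitors 7 rose (35%) and 4 fell (20%), against the same shares of all tested genes (4 and 1 without the block).

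Growth-factor response genes were higher while most kinase genes were not called. Of 24 AP-1 and immediate early genes 15 rose and none fell, and of 17 feedback genes of ERK signaling 12 rose and none fell, against 11.2% of all tested genes higher. Fosl1, an AP-1 subunit gene, was at 7.72 and 9.29 CPM in DMT-Cre and at 1.66 and 1.19 CPM in DMT-GFP. Maff, a small Maf factor gene, rose from 14.1 and 9.76 CPM to 59.5 and 72.2 CPM, and the stress factor gene Atf3 from 7.02 and 3.60 CPM to 29.5 and 24.4 CPM. Dusp5, a phosphatase that acts on ERK, rose by 2.43 (SE 0.32), and Ereg, an EGF receptor ligand gene, by 2.32 (0.14). Fos and Egr1, the immediate early genes used most often as markers, had log2 fold changes of 0.55 (SE 0.85, adjusted p = 0.646) and 0.53 (0.27, adjusted p = 0.139), and Fos overlapped between groups. Egr1 was called by DESeq2, when DMT-GFP 2 was left out and when the DMT libraries alone were fitted, the last of which also called Fos.

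Of 28 genes for kinases and partners of the PI3K-AKT and RAF-MEK-ERK pathways, 4 rose (14.3%, near the 11.2% of all tested genes), among them Pik3cb, Map2k1 and Hras, and none fell (2 rose without the block, Pik3cb and Map2k1). Akt1 was at 261 and 246 CPM in DMT-Cre and at 218 and 169 CPM in DMT-GFP, a log2 fold change of 0.40 (SE 0.09, adjusted p = 0.00145) that was under the required size.

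Antioxidant, ATF4 and heat shock genes were higher in part. Of 23 antioxidant genes controlled by NRF2, 9 rose and none fell, of 22 genes of the ATF4 stress response and serine synthesis 10 rose and none fell, and of 17 heat shock genes 7 rose and none fell (5, 6 and 4 without the replicate block), against 11.2% of all tested genes higher. Slc7a11, the cystine transporter that both NRF2 and ATF4 control, was at 17.4 and 48 CPM in DMT-Cre and at 6.03 and 6.55 CPM in DMT-GFP. Hmox1, encoding heme oxygenase 1, was at 357 and 493 CPM against 190.5 and 148 CPM, a log2 fold change of 1.37 (SE 0.19). Hspa1b, an inducible HSP70 gene with a near-identical copy, Hspa1a, so that its count is uncertain, rose from 16.6 and 16.4 CPM to 44.3 and 49.9 CPM. Nfe2l2 and Keap1, the NRF2 gene and that of its inhibitor, had log2 fold changes of 0.19 and 0.22. In the unfolded protein response 3 of 21 genes rose (14.3%) and 1 fell (4.76%), near or below the 11.2% and 12% of all tested genes, and none was called without the block.

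Interferon-stimulated genes were higher in DMT-Cre. Of 41 tested, 23 rose (56.1%) and 1, Mx1, fell (2.44%), against 11.2% and 12% of all tested genes, with a median of 0.67. The count was 9 higher without the replicate block, 13 without DMT-Cre 2 and 14 without DMT-GFP 1. Oas2, a sensor of double-stranded RNA and one of a family of similar genes, was at 4.93 and 5.94 CPM in DMT-Cre and at 0.780 and 2.23 CPM in DMT-GFP, and Isg15, a ubiquitin-like modifier, at 105 and 77.6 CPM against 44.9 and 28.5 CPM. Zbp1, a nucleic acid sensor gene, rose from 18 and 17.1 CPM to 53.2 and 40.4 CPM, a call lost without the block. The groups did not overlap in these genes. Of 18 genes for MHC class I and antigen processing 8 rose (44.4%) and 1 fell (5 and 1 without the block), with H2-D1 at 404 and 1016 CPM against 115 and 189.9 CPM and H2-K1 at 653 and 1442 CPM against 238 and 364 CPM, both members of a family with similar sequences. Of 16 chemokine genes 7 rose (43.8%) and 1 fell (2 and 1 without the block). Adenovirus infection was common to Ad-Cre and Ad-GFP populations, and the part of the viral dose in these genes was not tested.

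The interferon element, GAAA followed by GAAA after 2 bases of any kind, was in 16 of 29 promoters found for the interferon-stimulated genes, in 3.76% of the promoters of tested genes and in 3.44% of all promoters. Of the 16 genes, Rsad2, Ddx58, Stat2, Eif2ak2 and Ifitm3 were not called. Bst2, encoding tetherin, held 2 overlapping matches and Isg15 held 3, also overlapping, shown in capitals.
Bst2, chr8:71537473-71537722, minus strand: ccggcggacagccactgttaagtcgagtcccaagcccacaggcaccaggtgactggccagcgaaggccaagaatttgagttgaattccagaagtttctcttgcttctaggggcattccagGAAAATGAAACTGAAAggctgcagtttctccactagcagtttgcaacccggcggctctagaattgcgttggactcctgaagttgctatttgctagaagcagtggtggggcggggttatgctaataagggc
Isg15, chr4:156200819-156201068, minus strand: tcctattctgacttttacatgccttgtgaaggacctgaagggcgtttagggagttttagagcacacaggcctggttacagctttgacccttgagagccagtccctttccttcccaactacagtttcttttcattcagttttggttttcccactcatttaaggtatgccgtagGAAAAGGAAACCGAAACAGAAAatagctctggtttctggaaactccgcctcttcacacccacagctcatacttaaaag

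None of 32 genes of G2/M and mitosis was called, and their median was 0.03. This list moved with single libraries, since the median ran from -0.38 to 0.37 over the fits that each left out 1 library. Mki67, the proliferation marker, overlapped between groups, at 349.5 and 289 CPM in DMT-Cre and 264 and 373 CPM in DMT-GFP, and its log2 ratio was 0.41 in pair 1 and -0.37 in pair 2. Of 49 genes of DNA replication and S phase, 9 rose (18.4%) and 1 fell (2.04%), against 11.2% and 12% of all tested genes, with a median of 0.36. In this list 1 gene rose without the replicate block, 2 without DMT-Cre 1 and 2 without DMT-GFP 1. Mcm3, a subunit of the replicative helicase, was at 129 and 89.8 CPM against 72.0 and 57.3 CPM, and Cdc6, which loads that helicase, at 22.2 and 12.7 CPM against 9.36 and 7.67 CPM, both calls lost in several of these alternatives.

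The cell-cycle regulators did not share a direction. Cdkn1a, encoding the CDK inhibitor p21, was at 38.5 and 47.9 CPM in DMT-Cre and at 13.5 and 12.2 CPM in DMT-GFP, a log2 fold change of 1.76 (SE 0.25, adjusted p = 0.000171). The inhibitor genes Cdkn2a and Cdkn2b fell, Cdkn2a from 70.8 and 59.4 CPM to 24.5 and 19.97 CPM and Cdkn2b with a log2 fold change of -1.85 (SE 0.14). Myc rose from 61.6 and 53.2 CPM to 167 and 179.6 CPM, and Ccnd1, encoding cyclin D1, by 0.84 (SE 0.11), the latter call being lost without the block. In none of these genes did DMT-Cre and DMT-GFP overlap. Of 24 targets of Trp53, 9 rose (37.5%) and 5 fell (20.8%), against 11.2% and 12% of all tested genes, and 7 rose and 3 fell without DMT-Cre 2. Plk2, a Polo-like kinase gene, rose by 1.89, the sestrin gene Sesn1 fell by 1.75, and Mdm2, the p53 ligase gene, was at 49.8 and 44.5 CPM against 49.3 and 48.1 CPM.

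Histone genes whose mRNAs normally end in a stem-loop rather than a poly(A) tail included members called higher. Of 34 listed, 25 passed the filter on low counts, and members at a few counts per library pass it through the groups where they are high, so no share or median of the list is given. Hist1h4h stood at 6.57 and 5.94 CPM in DMT-Cre and 1.04 and 0.648 CPM in DMT-GFP, and Hist1h1c, a linker histone gene, at 94.0 and 58.0 CPM against 40.6 and 29.7 CPM, the latter call being lost without the block. Many of these genes are near-identical to each other and their counts are uncertain, and libraries were made from poly(A) RNA. Of 19 small proline-rich and cornified envelope genes, structural genes of the skin barrier, 9 passed that filter, most of them at low counts, and no share is given for the same reason. Sprr1a, the most abundant of them, rose from 30.1 and 24.6 CPM to 144 and 122 CPM. Of 75 cytosolic ribosome genes 3 rose and 6 fell, and of 75 mitochondrial ribosome genes 2 rose and 2 fell, against 11.2% and 12% of all tested genes. In each of the ribosome lists 1 gene rose and none fell without the block, and 11 cytosolic ribosome genes fell without DMT-Cre 2.

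Set beside the other constructs, the Cre effect in DMT was closest in size to that in EV. The same test called 3502 genes (25.4%) in EV, 2003 (14.5%) in MT194, 1673 (12.1%) in MT486 and 426 (3.09%) in WT. Of the 3191 genes called in DMT, 2394 (75.0%) were also called in the same direction in EV, 1607 (50.4%) in MT194, 1402 (43.9%) in MT486 and 347 (10.9%) in WT. As shares of the other constructs' own calls, these were 68.4% in EV, 80.2% in MT194, 83.8% in MT486 and 81.5% in WT. Over the DMT-called genes, the median ratio of the effect to that in DMT was 0.951 in EV, 0.695 in MT194, 0.631 in MT486 and 0.333 in WT, and since the genes were chosen by their size in DMT this ratio is drawn below 1. The comparisons share no library.

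**Figure D5:**
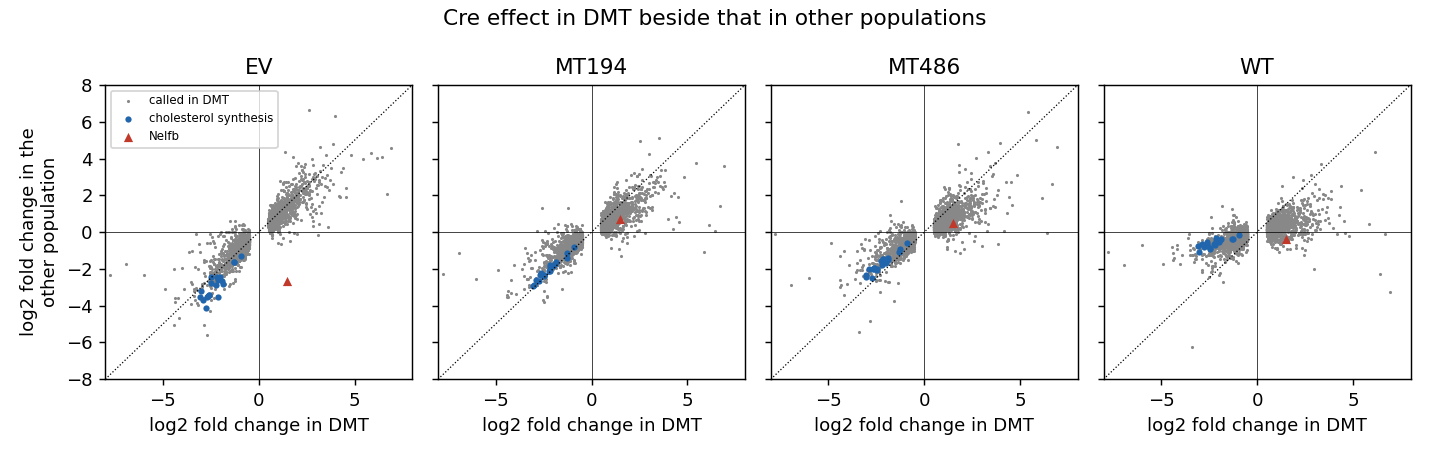
Log2 fold change with Cre in DMT (x axis) against that in EV, MT194, MT486 and WT (y axis) for the 3191 genes called in DMT; blue points are the 20 cholesterol synthesis enzymes, the red triangle is Nelfb and the dotted line is equality. Over these genes the median ratio to the effect in DMT is 0.951 in EV and 0.333 in WT, where the points follow a flatter slope, and Nelfb lies at 1.49 in DMT and -2.67 in EV.

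The difference between DMT and WT was tested as an interaction. It passed for 992 genes (7.19%), 476 with a higher (3.45%) and 516 with a lower (3.74%) log2 fold change in DMT, and 962 of them had the larger effect in DMT. Of the cholesterol enzymes 19 of 20 passed, all with a lower log2 fold change in DMT, with list medians of -2.35 in DMT and -0.63 in WT. The difference also passed for 10 of 17 fatty acid synthesis genes, 10 of 24 AP-1 and immediate early genes, 9 of 26 YAP/TEAD targets, 8 of 18 hypoxia genes, 8 of 17 ERK feedback genes and 8 of 23 NRF2 genes. Of 19 contractile genes 5 passed with a higher and 1 with a lower log2 fold change in DMT, with list medians of 0.83 in DMT and 0.26 in WT. None of 41 interferon-stimulated genes, 49 DNA replication genes or 32 G2/M genes passed, with medians in WT of 0.50, 0.60 and 0.66. Among the largest differences were those of Lipg (-3.28, SE 0.49, adjusted p = 0.00177), Spib (-2.94), Anpep (-2.84) and Dact2 (-2.80). The number passing was 498 without DMT-GFP 2, 511 without WT-GFP 1, 639 without WT-Cre 2 and 19 without the replicate block.

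Between DMT and EV, 1 gene (0.00724%) passed, Nelfb itself, with a difference of 4.16 (SE 0.24, adjusted p = 9.35e-07). An unadjusted p under 0.05 was given by 863 of 13805 genes, the smallest adjusted p without Nelfb was 0.0795, and 5 genes were called by DESeq2, 2 without the filter on low counts and 4 without DMT-Cre 2. The median standard error of the difference was 0.178 on the log2 scale, and differences several times that size in single genes also missed the adjustment. Cholesterol enzymes had a median of -2.84 in EV and -2.35 in DMT, and 12 of the 20 had an unadjusted p under 0.05 for the difference, none of which passed the adjustment. The G2/M genes had a median of -0.85 in EV, where 11 of 32 fell (13% of all tested genes were lower in EV), and of 0.03 in DMT, with 3 of 32 at an unadjusted p under 0.05 for the difference. The medians for DNA replication were -0.10 in EV and 0.36 in DMT.

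The differences from the single mutants were few. Between DMT and MT194, 10 genes (0.0724%) passed, among them Atf3, higher in DMT by 1.55 (SE 0.24, adjusted p = 0.0251), Chac1, which encodes a glutathione-degrading enzyme of the ATF4 response, by 1.21, and Slc15a2, a peptide transporter gene, with a difference of -1.42. Between DMT and MT486, 8 genes (0.058%) passed, with Ptn, encoding the growth factor pleiotrophin, at -1.57 (SE 0.22, adjusted p = 0.00710) and Atf3 at 1.42. Ccl5, a chemokine gene, was at 31.0 and 24.8 CPM in DMT-Cre and 27.4 and 23.8 CPM in DMT-GFP, with a log2 fold change of 0.11 in DMT and 1.13 in MT486, a difference of -1.02. In Atf3 the DMT log2 fold change of 2.40 stood beside 0.85 in MT194 and 0.99 in MT486. Both counts fell to 0 without the replicate block, when the compared libraries alone were fitted, and when DMT-Cre 2 or DMT-GFP 2 was left out, with 1117 and 1385 genes at an unadjusted p under 0.05 in the model with all libraries. They rose to 41 and 97 by DESeq2, and to 50 and 43 without DMT-Cre 1, and the count against MT194 was 91 without MT194-Cre 1.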

How the data were processed

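Poly(A) RNA of each population was sequenced as 50 bp single reads. The deposited values are read counts per gene: the authors aligned reads with Bowtie2 to mm10, kept those with a mapping quality of at least 30 with SAMtools and counted them with HTSeq, before testing with DESeq2. Versions, the gene annotation and the strand setting of the counting are not given in the sources used here, so genes that overlap on opposite strands and near-identical genes are uncertain, and Bowtie2 does not place reads across splice junctions. The authors' test results are not used here.

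Counts of the 20 populations (17969149 to 29080007 reads on genes) were tested with edgeR 4.0.16 in R 4.3.3. Library sizes were scaled by TMM, genes were kept by filterByExpr (13805 of 24421), and group means with the replicate number as a block were fitted by quasi-likelihood, with 9 residual degrees of freedom. Summary lines for reads on no gene (14.2% to 19.9% of reads in the DMT libraries) and ambiguous reads were left out. Benjamini-Hochberg adjustment ran over all tested genes, and a call required an adjusted p under 0.05 and a log2 fold change over 0.5 in size. Differences between constructs were interaction terms of the same model. The replicate numbers pair libraries: in all 45 pairs of groups the libraries with the same number deviated together (r from 0.42 to 0.73). The p-values measure the spread between these libraries, which the study describes as separate experiments for the other constructs.

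The comparison and the gene lists were chosen with earlier results of these data known. Genes were named as the NELF subunits, the 12 largest changes in each direction among genes that were called and averaged 50 counts or more over the DMT libraries, up to 4 called members per list, fixed examples, and up to 5 genes per interaction. Ebp, Ldha, Mx1, Isg15, Bst2 and Sncg, and the uncalled genes Srebf1, Scap, Insig2, Npc2, Elovl5, Elovl1, Me1, Hif1a, Nfe2l2, Keap1 and the TGF-β receptors and Smads, were chosen after their values were seen. So were further members named as cell type markers, for few reads or as uncalled genes with a promoter motif. Alternatives were DESeq2 1.42.0, its size factors, no filter, no block, a log2 threshold of 1, the compared libraries alone, and each library left out. Sequences are from RefSeq promoters, the GENCODE transcripts and the mutagenesis primers. The 15 clones were not analysed here. Results for a few genes are not reported here.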

Additional observations from a re-analysis of the deposited data

Results flagged for a closer look

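These differences were selected because the test of the difference between 2 constructs' Cre effects passed. The number of genes passing was 1 for DMT against EV, 992 for DMT against WT, 10 for DMT against MT194 and 8 for DMT against MT486.

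Against EV the gene was Nelfb, with a difference of log2 fold changes of 4.163. Against WT the largest differences included -3.278 for Lipg, -2.942 for Spib, -2.838 for Anpep and -2.801 for Dact2. Each of these 4 genes had a log2 fold change of the same sign in DMT and WT, larger in DMT.

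Against MT194 the largest differences were 1.551 for Atf3, -1.423 for Slc15a2, 1.211 for Chac1, -0.9774 for Matn2, which encodes a matrilin of the extracellular matrix, and -0.9338 for Gas2, a growth arrest gene. Against MT486 they were -1.572 for Ptn, 1.417 for Atf3, -1.016 for Ccl5, -0.9679 for Abca9, a transporter gene, and 0.9014 for Csrnp2, a nuclear protein gene. Atf3 was the gene named against both single mutants.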

How the results depend on the processing

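The genes called in DMT numbered 3064 by DESeq2, 3187 with its size factors, 3117 without the filter on low counts, 2982 with the DMT libraries alone and 1215 at a log2 threshold of 1, and from 2536 (without DMT-GFP 2) to 3056 (without DMT-Cre 1) with 1 library left out. For DMT against EV the count was 5 by DESeq2, 2 without the filter and 1 to 4 with a library left out. For DMT against WT it was 362 at a log2 threshold of 1 and 498 to 936 with a library left out. For DMT against MT194 it was 41 by DESeq2, 6 with its size factors, 15 without the filter, 3 at a threshold of 1, 0 with the compared libraries alone and 0 to 91 with a library left out. For DMT against MT486 it was 97 by DESeq2, 25 without the filter, 4 at a threshold of 1, 0 with the compared libraries alone and 0 to 43 with a library left out. The cause was not tested. Where a library was left out, the lone library of its group was assumed to vary like the other groups.

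Without the replicate block, that is, without the pairing of libraries, the counts were 1369 for DMT, 19 for DMT against WT, 0 against MT194 and 0 against MT486, and Nelfb was still the gene called against EV. Of 192 named genes 48 lost their call without the block, 55 at a threshold of 1 and 10 to 13 with 1 DMT library left out, and no called gene among them changed direction in any alternative. The sign of the uncalled Ccl5, Fos, Mdm2, Mki67 and Nelfa turned when 1 of the DMT libraries was left out. Depth limits the genes with few reads in a group, among them Gpr35, Idi1, Dact2 and Lipg.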

Other observations

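Ligands and receptors of other pathways moved in part. Of 9 tested EGF family genes 4 rose and none fell, and of 21 IL-6 family cytokine and acute-phase genes 7 rose and 3 fell, against 11.2% higher and 12% lower among all tested genes. Without the replicate block 2 EGF family genes rose, and 4 IL-6 list genes rose and none fell, and without DMT-Cre 1, 1 of the latter fell. Il6, encoding interleukin 6, was at 118 and 163 CPM in DMT-Cre and at 31.4 and 39.6 CPM in DMT-GFP, so that the groups did not overlap. Of 17 integrin genes 4 rose and 4 fell, with none higher and 2 lower without the replicate block and 2 higher and 3 lower without DMT-GFP 2.

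Of 20 aminoacyl-tRNA synthetase genes, which charge tRNAs with amino acids, 5 rose (25%, against 11.2% of all tested genes) and none fell (3 rose without DMT-Cre 2), and of 25 genes of autophagy and the lysosome 4 fell (16%, against 12% of all tested genes) and none rose, with none called without the block. None of 17 genes of homologous recombination was called, and 1 of 12 snoRNA host genes fell.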
